A study of Homo sapiens with 6 samples.

Results

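The guides described here target 23 genes of nucleotide excision repair and its helicase complex TFIIH. They were taken by gene symbol alone (Xpa, Xpc, Cetn2, Xab2, and every symbol that begins with Ercc, Gtf2h, Rad23, Ddb or Cul4), which gave 92 of the 1887 guides of the library, 46 at each of the 2 positions of the construct. Guide 3 of Xpa had 1 read in all 6 libraries together, so 91 guides were tested. The screen paired guides in 1 construct in eHAP iCas9-cl#6 cells, a p53 null clone of the human haploid line eHAP, which stems from leukemia cells, with Cas9 under doxycycline control. All groups share this 1 clone, the library and the p53 null genotype. Irradiated cells received 0.6 Gy of X-rays a day after each split and were collected at day 15 after 10 population doublings, unirradiated cells were collected at day 14 after 12 doublings, and day 0 cells were the baseline. Each group has 2 libraries, and since nothing in the labels says whether these came from separate cultures, p-values measure only the spread between them. More reads of a construct were taken to mean more cells with it, which was not measured.

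Nucleotide excision repair removes bulky lesions such as those made by ultraviolet light, by cutting out a short stretch of the damaged strand. In the global genome branch, XPC with its partners CETN2 and RAD23B senses the distorted helix, helped by DDB2. In the transcription-coupled branch, an RNA polymerase stalled at the lesion recruits CSB (the product of Ercc6) and CSA (Ercc8). Both branches then load TFIIH, whose XPB (Ercc3) and XPD (Ercc2) helicase subunits open the helix, XPA checks the lesion, and the nucleases XPG (Ercc5) and XPF with ERCC1 (Ercc4, Ercc1) cut. TFIIH is also a general factor of transcription by RNA polymerase II, and loss of its core subunits is generally not tolerated by growing cells. Ionizing radiation makes mainly breaks and oxidised bases, which other pathways repair.

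Libraries held between 61185707 and 86587125 reads, and constructs with a guide of these genes took between 9.05% and 10.2% of them. Guides were read as sums over all their partners, a median of 931 constructs per guide. Day 14 replicate 1 and irradiated replicate 2 are incomplete: 51.9% and 47.2% of the 82370 constructs with a guide of these genes had no reads there, against 1.24% to 6.43% in the other libraries. In those 2 libraries a median of 60 and 78 constructs held 50% of a guide's reads, against 179 to 221 in the others. Guide sequences and cut sites were not used here, so a gene can be located but not the cut in it, and whether a guide cut was not measured. The symbols are written as mouse symbols although the cells are human, and all 23 match a human gene in capitals.

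Cells with a guide against an excision repair or TFIIH gene were not called more or less abundant, either after growth or after irradiation, in the test over all libraries. Guide changes ran from -0.25 to 0.55 at day 14 against day 0, from -0.27 to 0.54 in irradiated against day 0 cells and from -0.40 to 0.25 in irradiated against day 14 cells, on the log2 scale. In edgeR's quasi-likelihood test over all 1849 guides with Benjamini-Hochberg adjustment, 0 of the 91 guides passed in any of the 3 comparisons, as did 0% of all guides. At an unadjusted p below 0.05 there were 2 of 91 in irradiated against day 0 cells (57 of 1849 over all guides), 4 in irradiated against day 14 cells (83) and 3 in day 14 against day 0 cells (79). DESeq2 called 1 of the 91 in irradiated against day 0 cells and the same guide, guide 1 of Cul4b, in irradiated against day 14 cells, where it called 1.46% and 1.35% of all guides. At day 14 against day 0 DESeq2 called 0 of the 91 and 1.3% of all guides. There 5 of the 91 were below an unadjusted p of 0.05, beside 139 of all 1849. The median 95% half-width of a change was 0.22 on the log2 scale for these 91 guides. It differed by position, at 0.17 for position 1 guides and 0.53 for position 2 guides. Over all guides tested it was 0.17 and 0.25 at these positions. Of the 45 tested position 2 guides of these genes, 31 are in a set that stood low in 1 day 0 library, described next. The width of 0.53 held in all 3 comparisons, so the lack of calls says little about small changes of these position 2 guides. Sums per gene over its guides and partners gave 0 of 23 genes and 0% of 459 in each comparison with edgeR. At an unadjusted p below 0.05 edgeR had 1, 1 and 0 of the 23 genes, beside 18, 12 and 18 of all 459. DESeq2 called 0 of the 23 gene sums in each comparison too, where it called 0.436%, 0.218% and 0.436% of all genes. At an unadjusted p below 0.05 DESeq2 had 2, 1 and 1 of the 23, beside 30, 16 and 29 of all 459.

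One library has to be described before any value against day 0. In day 0 replicate 1, 31 of the 45 tested position 2 guides of these genes stood below day 0 replicate 2, with a median log2 difference of -0.73, and the other 14 had a median of 0.12. Over all position 2 guides the low set was 264 of 927 (28.5%), separated by a gap: the same 264 and the same 31 were counted at limits of -0.2, -0.3, -0.4 and -0.5. The set followed genes. All position 2 guides of Xpc, Cetn2, Rad23b, Ddb1, Ddb2, Ercc2, Ercc5, Ercc6, Ercc8, Gtf2h1, Gtf2h2, Gtf2h3, Gtf2h5 and Xab2, and the tested one of Xpa, were low. Those of Cul4a, Cul4b, Ercc1, Ercc3, Ercc4, Ercc6l2 and Gtf2h4 were not. At position 1 none of the 46 was low, with differences from -0.09 to 0.13. Guide 3 of Xpc shows the pattern, with 203931 and 213673 normalized reads in irradiated libraries, 204276 and 199999 in day 14 libraries, and 123563 and 198446 in day 0 libraries (TMM scaling by edgeR, done separately for the 2 positions). The 5 libraries other than day 0 replicate 1 lie close together, and that library stands apart. With day 0 replicate 1 as the only baseline, edgeR called 32 of the 91 guides in irradiated cells (16.8% of all guides) and 31 in day 14 cells (16.9%), and in both comparisons these included all 31 low guides, each higher. It then called 17 of the 23 gene sums in irradiated cells (33.6% of all genes) and 16 in day 14 cells (35.7%). With day 0 replicate 2 as the only baseline it called 0 of 91 in both (0.216% and 0.162% of all guides), with 2 and 1 below an unadjusted p of 0.05. In such fits the lone day 0 library is assumed to vary like the other groups. Most values against day 0 are therefore also given without that library. The cause of the low set was not tested.

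The global genome branch is represented by 20 guides of 5 genes. Their median was 0.29 in irradiated against day 0 cells and 0.24 in day 14 against day 0 cells, where the medians over all guides were -0.00 and -0.00. Without day 0 replicate 1 they were 0.02 and 0.05. The position 1 guides, which that library did not shift, had medians of -0.00 and 0.02 over all libraries. Xpc, the damage sensor, had the smallest p of these guides at day 14 with its guide 1, at 142647 and 131137 normalized reads in day 14 libraries and 122336 and 122620 in day 0 libraries. The day 14 libraries are both above the day 0 libraries, but the irradiated ones, at 122294 and 127862, are not above both, and the change at day 14 was 0.16 (95% interval 0.01 to 0.31, edgeR adjusted p = 0.65). The other 3 guides of Xpc were between 0.01 and 0.37 at day 14, or between 0.01 and 0.04 without day 0 replicate 1.

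Rad23b encodes a partner that stabilises XPC. Its guide 2 had 80160 and 83396 normalized reads in irradiated libraries, 88417 and 88086 in day 14 libraries, and 80896 and 82289 in day 0 libraries. Both day 14 libraries lie above the other 4, by 0.11 against day 0 (95% interval -0.02 to 0.24, edgeR adjusted p = 0.65), and irradiated cells were at -0.11 against day 14. Without day 0 replicate 1 the 4 guides of Rad23b lay between -0.07 and 0.08 in irradiated against day 0 cells and between 0.01 and 0.10 at day 14 against day 0. Cetn2, the centrin bound by XPC, had guides between -0.00 and 0.13 in irradiated cells and between -0.13 and 0.12 at day 14, both without day 0 replicate 1. Ddb2, the ultraviolet damage binder, had guides between -0.02 and 0.12 and between -0.04 and 0.13.

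The transcription-coupled branch has 12 guides of 3 genes. Over all libraries its median was 0.17 in irradiated against day 0 cells and 0.17 in day 14 against day 0 cells, and without day 0 replicate 1 it was 0.01 and 0.01. Ercc6 encodes the translocase that reads the stalled polymerase. Its guide 3 had 50787 and 64610 normalized reads in irradiated libraries, 46875 and 50181 in day 14 libraries, and 31422 and 50688 in day 0 libraries. Only irradiated replicate 2 is high among the libraries other than day 0 replicate 1, and 27.4% of that guide's reads there (95% Wilson interval 27.1% to 27.7%) came from 1 construct, with guide 2 of Cebpg, which had 20244 reads in that library, 32 in irradiated replicate 1, and at most 40 in any other. Without that construct, the guide was at -0.11 against day 0 replicate 2 in irradiated replicate 2, and at 0.35 with it. Such intervals cover counting error only, since PCR reads without molecular identifiers are not independent molecules. The other guides of Ercc6 were at -0.04, 0.00 and 0.12 in irradiated against day 0 cells without day 0 replicate 1.

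Ercc8 encodes the substrate receptor that joins CSB at the stalled polymerase. Its guide 1 was at 75810 and 71517 normalized reads in irradiated libraries, 81084 and 82272 in day 14 libraries, and 76204 and 78257 in day 0 libraries. The irradiated libraries lie below and the day 14 libraries above the day 0 libraries, with an irradiated-minus-day 14 change of -0.15 (95% interval -0.29 to -0.00, edgeR adjusted p = 1.00). Guides 2, 3 and 4 of Ercc8 were at 0.02, 0.02 and -0.05 in the same comparison. Xab2, an XPA-binding protein that also takes part in splicing, had guides between -0.12 and 0.06 there. The -0.12 is that of its guide 3, which took 8.07% and 10.8% of its day 14 reads from the construct with guide 1 of Cul4b described below. Without that construct, guide 3 of Xab2 stood at 0.02 and 0.05 in irradiated libraries and 0.03 and 0.01 in day 14 libraries, relative to day 0 replicate 2. The guides of Xab2 lay between -0.04 and 0.06 at day 14 against day 0 without day 0 replicate 1.

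The 2 branches were set side by side per library. Position 1 guides of the global genome branch had medians, relative to day 0 replicate 2, of -0.01 and 0.02 in the irradiated libraries, 0.06 and 0.00 in the day 14 libraries and 0.00 in day 0 replicate 1. Those of the transcription-coupled branch were at 0.02 and -0.00, 0.05 and 0.04, and 0.01 in the same libraries. At position 2 the global genome branch had medians of 0.03 and 0.09 in irradiated libraries and 0.11 and 0.02 in day 14 libraries, and the transcription-coupled branch -0.04 and 0.01, and -0.01 and -0.02. In day 0 replicate 1 both branches stood low at position 2, at -0.73 and -0.70. The larger medians of the global genome branch, 0.09 and 0.11, are those of the 2 incomplete libraries. At day 14 against day 0 without day 0 replicate 1, 10 of 10 position 2 guides of the global genome branch were higher, with a median of 0.05, against 1 of 6 of the transcription-coupled branch, with a median of -0.02. At position 1, 6 of 10 and 5 of 6 were higher, with medians of 0.04 and 0.05, so the order of the branches differed between the positions. Over all guides in that fit, 47.4% at position 2 and 48.9% at position 1 were higher. All these guides were read against the same 1 day 0 library, so they do not count as separate replicates. In irradiated against day 14 cells, a comparison that leaves out day 0, the global genome branch had 10 of 20 guides lower with a median of -0.00, and the transcription-coupled branch 5 of 12 with a median of 0.02. No test of a difference between the branches was made, as the guides were chosen with results known.

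Cul4a, Cul4b and Ddb1 encode the scaffold and adaptor of the CRL4 ubiquitin ligase, which carries DDB2 in one branch and CSA in the other. Guide 1 of Cul4b had the smallest p of the 91 guides in both irradiated comparisons. It was at 109309 and 109114 normalized reads in irradiated libraries, 140505 and 148199 in day 14 libraries, and 134574 and 129497 in day 0 libraries. The irradiated libraries lie below all 4 others, and the day 14 libraries above both day 0 libraries. The change was -0.40 against day 14 (95% interval -0.53 to -0.28, edgeR adjusted p = 0.12) and -0.27 against day 0 (-0.40 to -0.15, edgeR adjusted p = 0.39). In fits of position 1 guides alone, or without either day 0 library, the first of these passed, at edgeR adjusted p of 0.00485, 0.00467 and 0.00456. Those fits called 1 of 46 (1.19% of position 1 guides), and 1 of 91 guides (0.541% and 0.595% of all guides). Position 1 guides alone gave 0 of 46 against day 0, in irradiated cells (0.108% of position 1 guides) and in day 14 cells (0.434%). There 3 and 5 of the 46 were below an unadjusted edgeR p of 0.05, beside 25 and 90 of all 922.

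Most of that difference comes from 1 construct. The pair of guide 1 of Cul4b and guide 3 of Xab2 had 299 and 87 reads in the irradiated libraries, 18019 and 24241 in the day 14 libraries, and 28163 and 19781 in the day 0 libraries, where the median construct of guide 1 of Cul4b had 108 and 114 reads. It made up 0.285% and 0.0688% of the guide's reads after irradiation (95% Wilson intervals 0.254% to 0.319% and 0.0558% to 0.0848%). At day 14 it made up 15.5% (15.3% to 15.7%) and 19.9% (19.7% to 20.1%), and at day 0 18.4% (18.2% to 18.6%) and 13.1% (13.0% to 13.3%). As CPM (reads scaled to a common library total), it was at 4.18 and 1.00 after irradiation, 291 and 396 at day 14, and 334 and 229 at day 0. The highest irradiated value lies 69.5-fold below the lowest day 14 value and 54.6-fold below the lowest day 0 value. Both irradiated libraries, the complete and the incomplete one, are low, and all 4 others are high. Without this construct guide 1 of Cul4b was at -0.12 against day 14 and -0.03 against day 0 (edgeR adjusted p = 1.00 and 0.87). This alternative was chosen after the data were seen.

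The other 7 constructs that pair Cul4b with Xab2 did not carry such numbers, with 372 and 242 reads together in irradiated libraries, 321 and 552 in day 14 libraries, and 394 and 630 in day 0 libraries. The sum for these 7 lies in 1 range in all groups. Of all 863546 guide pairs, 2 had at least 10000 reads in both day 0 libraries, this one and 1 without a guide of these genes. Both lay 10-fold or more below day 0 in both irradiated libraries, and 0 of the 2 did so in both day 14 libraries. CUL4B spans 120523858 to 120575532 on human chromosome X and XAB2 spans 7619525 to 7629545 on chromosome 19 (GRCh38.p14 gene annotation).

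Guide 2 of Cul4b was at 41145 and 34888 normalized reads in irradiated libraries, 37333 and 44538 in day 14 libraries, and 44883 and 43869 in day 0 libraries. Irradiated libraries lie below day 0 but overlap day 14, with changes of -0.22 and -0.11, and guides 3 and 4 were at -0.00 and -0.02 in irradiated against day 14 cells. The gene sum of Cul4b was at -0.19 in irradiated against day 14 cells. It was the 1 of the 23 below an unadjusted edgeR p of 0.05, with an edgeR adjusted p of 0.995. This sum includes the construct of guide 1 of Cul4b with guide 3 of Xab2, and no gene sum was made without it. The 4 guides of Cul4a, the paralog, lay between -0.04 and 0.04 in irradiated against day 14 cells. Ddb1 guide 2 stood at 139302 and 139440 normalized reads in irradiated libraries, 151171 and 153538 in day 14 libraries, and 146665 and 144535 in day 0 libraries. Irradiated and day 14 libraries lie on opposite sides of day 0, at -0.13 (95% interval -0.24 to -0.02, edgeR adjusted p = 1.00), while the other 3 Ddb1 guides were at -0.03, 0.06 and -0.00.

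TFIIH is covered by 28 guides of 7 genes. At day 14 against day 0 their median was 0.05, with 16 higher and 12 lower, and without day 0 replicate 1 it was -0.00, with 13 higher and 15 lower. Without day 0 replicate 1 the 28 guides ranged from -0.21 to 0.22, and the 61 non-targeting guides, which have no target gene, from -0.33 to 0.14. After irradiation the 28 ranged from -0.17 to 0.21 and the non-targeting guides from -0.21 to 0.12, in the same fit. The non-targeting guides are more numerous and had wider intervals in that fit, so the ranges are not equally precise. The lowest 95% bound of any of the 28 guides was -0.45 at day 14 and -0.35 after irradiation without day 0 replicate 1, and -0.35 and -0.39 over all libraries.

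Ercc3 encodes the XPB translocase, and none of its guides was in the low set of day 0 replicate 1. Guide 1 of Ercc3 was at 88961 and 87885 normalized reads in irradiated libraries, 96045 and 96875 in day 14 libraries, and 85911 and 89762 in day 0 libraries. Day 14 libraries are above all others, by 0.14 against day 0 (95% interval 0.01 to 0.26, edgeR adjusted p = 0.65), and irradiated cells were at -0.13 against day 14. Guides 2, 3 and 4 of Ercc3 were at 0.08, -0.04 and -0.10 at day 14 against day 0. Guides 3 and 4 are at position 2, and without day 0 replicate 1, where such guides stood high, guides 1 to 4 were at 0.10, 0.07, 0.07 and -0.01. Ercc2, the XPD helicase gene, had guides between -0.06 and 0.09 at day 14 and between -0.13 and 0.01 after irradiation, both without day 0 replicate 1.

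Gtf2h4 encodes the p52 subunit that anchors XPB. Its guide 3 had 80761 and 81182 normalized reads in irradiated libraries, 76166 and 81610 in day 14 libraries, and 83343 and 90939 in day 0 libraries. Both later groups lie below day 0, at -0.14 for day 14 (95% interval -0.32 to 0.03, edgeR adjusted p = 0.65) and -0.11 for irradiated cells, and the other 3 guides of Gtf2h4 were at 0.02, 0.04 and 0.06 at day 14. Leaving out day 0 replicate 1 put guide 3 at -0.21 at day 14 and -0.17 after irradiation, and the other 3 at 0.09, 0.05 and 0.03 at day 14. Gtf2h3, the p34 subunit gene, had its guide 1 at 50824 and 55452 normalized reads in irradiated libraries, 43954 and 48461 in day 14 libraries, and 46045 and 47555 in day 0 libraries. Irradiated libraries lie above all others, at 0.20 against day 14 and 0.18 against day 0 (edgeR adjusted p = 1.00 and 0.79), while guides 2, 3 and 4 lay between -0.08 and 0.05 against day 14.

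The other TFIIH subunits differed as little. Without day 0 replicate 1 the guides of Gtf2h1 (p62) lay between -0.08 and 0.03 at day 14, those of Gtf2h5, the small subunit that stabilises the complex, between -0.12 and 0.08, and those of Gtf2h2 (p44) between -0.14 and 0.22. Human GTF2H2 on chromosome 5 has near-identical copies, so its guides may cut more than 1 locus. Its guide 4 was at 31069 normalized reads in irradiated replicate 2 and 31334 in day 14 replicate 1, the incomplete libraries, and at 24434 in irradiated replicate 1, 24526 in day 14 replicate 2, and 14249 and 23922 in the day 0 libraries. Its 0.22 at day 14 without day 0 replicate 1 thus comes with a high value in the incomplete library alone.

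Damage verification and incision have 15 tested guides of 4 genes. Their median was -0.03 in irradiated against day 0 cells, -0.02 at day 14 and -0.01 in irradiated against day 14 cells. Without day 0 replicate 1 the first of these was -0.01 and the day 14 median 0.00. Ercc1 guide 1 had 143282 and 145309 normalized reads in irradiated libraries, 158201 and 156959 in day 14 libraries, and 149057 and 143872 in day 0 libraries. Day 14 libraries lie above the rest, with irradiated cells at -0.13 against day 14 (95% interval -0.24 to -0.01, edgeR adjusted p = 1.00) and day 14 at 0.11 against day 0. Its guides 2, 3 and 4 were at -0.05, 0.17 and -0.08 against day 14. Ercc4, whose product is the nuclease partner of ERCC1, had its position 2 guides 3 and 4 at -0.16 and -0.13 at day 14 against day 0 and at -0.16 and -0.11 after irradiation. They were at -0.10 and -0.10 at day 14 and at -0.09 and -0.08 after irradiation when day 0 replicate 1 was left out. Guide 3 of Ercc4 had 42008 and 43098 normalized reads in irradiated libraries, 40839 and 43900 in day 14 libraries, and 49368 and 45391 in day 0 libraries. Both day 0 libraries lie above the rest, but position 1 guides 1 and 2 of Ercc4 were at -0.02 and 0.06 at day 14, and at -0.04 and 0.05 without day 0 replicate 1.

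Ercc5, the gene of the other nuclease, had guides between -0.08 and 0.03 at day 14 and between -0.01 and 0.02 after irradiation without day 0 replicate 1. Its guide 1 drew 11.6% of its reads in irradiated replicate 2 (95% Wilson interval 11.4% to 11.7%) from 1 construct with guide 3 of Emsy, which had 22053 reads there and at most 511 in any other library. Relative to day 0 replicate 2, guide 1 of Ercc5 was at -0.03 in irradiated replicate 2 with that construct and at -0.20 without it. Xpa had 3 tested guides, between -0.06 and 0.02 at day 14 and between 0.01 and 0.10 after irradiation. Ercc6l2, which the symbol rule takes in and which encodes a relative of CSB with roles outside this pathway, had guides between -0.21 and 0.13 at day 14 and between 0.00 and 0.02 after irradiation, all without day 0 replicate 1.

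Counts of guides whose groups did not overlap were read against the whole library. In irradiated against day 14 cells 20 of the 91 guides lay lower in both libraries and 14 higher, where 15.8% and 15.1% of all guides did. Against day 0, irradiated cells had 14 lower and 21 higher (18.3% and 18.2% of all guides), and day 14 cells 21 lower and 28 higher (21.5% and 19.5%). In the last 2 comparisons 13 and 13 of the guides counted as higher were at position 2.

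Taking each guide's median over its partners in place of its sum keeps single constructs from counting for more than 1 partner. This was done in the most complete library of each group, with no replicate. Over the 91 guides the medians were -0.07 in irradiated against day 0 cells, -0.03 in irradiated against day 14 cells and -0.02 in day 14 against day 0 cells, and over all guides they were -0.07, -0.04 and -0.02. The global genome branch was at -0.06, -0.03 and -0.01 in these comparisons, the transcription-coupled branch at -0.05, -0.01 and -0.01, and TFIIH at -0.07, -0.02 and -0.02. Over these groups, the CRL4 genes and the incision genes the medians in irradiated against day 0 cells ran from -0.09 for the CRL4 genes to -0.05 for the transcription-coupled branch.

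Constructs that carry 2 guides against the same gene of the 23 numbered 90. They summed to 118 and 107 CPM in irradiated libraries, 158 and 124 in day 14 libraries, and 88.2 and 120 in day 0 libraries. For the 28 that hit a TFIIH gene at both positions the sums were 38.3 and 36.9, 60.2 and 41.2, and 26.0 and 36.3 CPM in the same order of groups. Both irradiated and both day 14 sums of TFIIH lay above both day 0 sums, and day 0 replicate 1 was the lowest of the 6. Each of these constructs holds a position 2 guide, and those of Ercc2, Gtf2h1, Gtf2h2, Gtf2h3 and Gtf2h5 are in the low set of that library. Beside day 0 replicate 2, at 36.3 CPM, the irradiated sums of 38.3 and 36.9 CPM were little higher. These sums are of few reads, from 2197 to 3730 per library, and were not tested. Single genes weigh in the incomplete libraries: Gtf2h1 gave 19.8 of the 36.9 CPM in irradiated replicate 2, against 6.23 CPM in irradiated replicate 1. Gtf2h2 gave 16.8 of the 60.2 CPM in day 14 replicate 1, against 2.81 CPM in day 14 replicate 2.

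Pairs of different genes among the 23 were set against the product of the abundances of both guides in the same library. Over 1973 constructs the ratio of observed reads to that product was 0.994 and 0.976 in irradiated libraries, 1.06 and 1.13 in day 14 libraries, and 1.15 and 1.07 in day 0 libraries. Leaving out the construct of Cul4b and Xab2 put it at 0.994 and 0.978, 0.956 and 0.982, and 0.990 and 0.988. The values above 1 at day 14 and day 0 thus came from that construct. For the 119 constructs that join a global genome guide to a transcription-coupled one, and so target both ways of finding a lesion, the ratio was 1.02 and 1.12 in irradiated libraries, 0.894 and 0.928 in day 14 libraries, and 0.939 and 1.01 in day 0 libraries. Both irradiated ratios lie above the other 4, the lower one by little. Some other role pairs had this order and some did not. Pairs among the CRL4 genes were at 1.24 and 1.56 in irradiated libraries and from 0.748 to 1.05 in the others. Incision with transcription-coupled guides were at 1.11 and 1.11, against 0.926 to 1.05. TFIIH with transcription-coupled guides were at 0.923 and 0.781, against 0.641 to 1.00. These ratios were not tested.

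Of 30 other genes of the pathway (among them Uvssa of the transcription-coupled branch, Cdk7 and Mnat1 of the kinase part of TFIIH, the RPA subunits, and gap-filling polymerases and ligases), 21 were in the library. With edgeR 0 of these gene sums passed in any comparison, with 0 below an unadjusted p of 0.05 in each, and DESeq2 called 0 of 21 in each, with 1, 0 and 0 below it. Their medians were 0.00 in irradiated against day 0 cells, 0.01 in irradiated against day 14 cells and -0.01 in day 14 against day 0 cells, beside 0.14, 0.00 and 0.15 for the 23 genes and -0.00, 0.00 and 0.01 for all 459. Without day 0 replicate 1 the 23 genes were at 0.01, -0.00 and 0.01. When only non-targeting partners were summed the 23 genes were at 0.07, 0.04 and 0.01, with a median 95% half-width of 0.38 and 0 called by edgeR. At an unadjusted edgeR p below 0.05 there were 1, 0 and 1 of the 23, beside 13, 7 and 8 of all 459.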

How the data were processed

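The authors deposited raw read counts per guide pair, per the file headers, for 2 irradiated, 2 day 14 and 2 day 0 libraries. HISAT2 2.1.0 and the build hg38 are named in the submitters' processing notes with no role. The counting method was not given in the sources consulted. Of the table, the 2 columns that match no sample were left aside. Samples were grouped by their titles. Libraries held 61185707 to 86587125 reads.

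Counts were summed per guide and position over all partners, and guides with a mean of at least 2000 were kept (1849, of 922 and 927 at the 2 positions). The summed counts were scaled by TMM within each position and tested, two-sided, with edgeR 4.0.16 (limma 3.58.1, R 4.3.3) over all 6 libraries, with Benjamini-Hochberg adjustment at 0.05. Gene sums leave out constructs with both guides against 1 gene. Changes are on the log2 scale. On simulated data for day 14 against day 0, edgeR found 29% of the 1.25-fold changes and 86% of the 1.5-fold changes among 1849 guides. Among 459 gene sums it found 89% and 100% of them, and it called 2 unchanged guides and 8 unchanged gene sums. In each simulation 200 guides or gene sums were changed at once, 100 at each fold. With so many changed, the Benjamini-Hochberg adjustment lets a given change pass more easily than where few are changed. The shares found are therefore not those to be had where only a few genes change. The simulated counts held no low set in day 0 replicate 1. These shares therefore need not hold for the guides and genes which that set touches.

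The guides named are, per comparison, those called and the 6 of smallest p, and genes are given by their guides. Guides outside this rule, such as guide 3 of Xpc, guide 4 of Gtf2h2 and guide 1 of Ercc5, were chosen after their values were seen. The values of 1 gene, which stays in the counts and medians, are not reported here. The members and lists were chosen with earlier results of these data known. Alternatives changed the scaling (DESeq2 1.42.0 size factors, non-targeting pairs), the count minimum, the test (DESeq2), a cap on construct counts, the partners, a replicate block and the libraries. Leaving out the construct of Cul4b and Xab2 and fitting each position alone were added after seeing the data.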

Additional observations from a re-analysis of the deposited data

Results flagged for a closer look

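For 5 guides the irradiated and the day 14 libraries lay on opposite sides of both day 0 libraries. The irradiated-minus-day 14 difference was 0.1682 for guide 2 of Cetn2, -0.4025 for guide 1 of Cul4b, -0.1285 for guide 2 of Ddb1, -0.1490 for guide 1 of Ercc8 and 0.1568 for guide 2 of Xpa, on the log2 scale. In edgeR's test of that difference over 1849 guides, 0 of the 5 passed. Guide 1 of Cul4b had an adjusted p of 0.116, and the other 4 had adjusted p-values of 1.00. All 5 are position 1 guides, so the low set of day 0 replicate 1 does not shift their reads. Their p-values are not free of it, since that fit estimates the spread over the guides of both positions together. With position 1 guides alone the edgeR adjusted p was 0.00485 for guide 1 of Cul4b, 0.279 for guide 2 of Ddb1 and 0.280 for guide 1 of Ercc8. The low position 2 guides, whose day 0 libraries lie far apart, could hardly meet this rule.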

How the results depend on the processing

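With 2 libraries per group, the calls turn on which libraries are kept. Leaving out 1 library in turn gave 0 to 32 of the 91 guides called in irradiated against day 0 cells, 0 to 1 in irradiated against day 14 cells and 0 to 31 in day 14 against day 0 cells. Over all guides the same fits gave 0 to 311, 0 to 11 and 0 to 313, and over the 23 gene sums 0 to 17, 0 to 0 and 0 to 16. The highest counts against day 0 are those without day 0 replicate 2. Against all 6 libraries, which gave 0 for the 91 guides and for all guides, DESeq2 called 1, 1 and 0 of the 91 in these comparisons and 27, 25 and 24 of all guides. Position 1 guides alone gave 0, 1 and 0 of 46, and 1, 11 and 4 of 922 guides. Position 2 guides alone without day 0 replicate 1 gave 0 of 45 in each, and 7, 2 and 2 of 927 guides. Scaling to non-targeting pairs called 2 of all guides in irradiated against day 0 cells and 1 in irradiated against day 14 cells. In irradiated against day 14 cells DESeq2 size factors and no count minimum called 1 of all guides each. Of 292 alternative values for the 18 named guide results, 279 kept direction and side of the threshold, 8 passed it and 5 changed sign. All 5 were sums over non-targeting partners only: guide 3 of Ercc4 at 0.12 in irradiated against day 0 cells, guides 2 of Ddb1, 1 of Ercc8 and 1 of Gtf2h3 at 0.21, 0.39 and -0.62 in irradiated against day 14 cells, and guide 1 of Ercc1 at -0.0049 at day 14 against day 0. The cause was not tested.

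Libraries of the same replicate number did not go together. Replicate differences correlated at -0.579 between irradiated and day 14 cells, 0.107 between irradiated and day 0 cells and -0.0454 between day 14 and day 0 cells, over 1849 guides. The negative value joins unlike replicate numbers, so that irradiated replicate 2 goes with day 14 replicate 1, the incomplete libraries. A block by replicate number cannot take up that shared spread. With the replicate block edgeR called 0 of the 91 guides and 0 of 23 gene sums in each comparison, and 1, 1 and 0 of all guides. At an unadjusted p below 0.05 that fit had 3, 1 and 0 of the 91, beside 51, 47 and 48 of all 1849.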
